A study of Mus musculus with 5 samples.

Results

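Ion channel genes were read from 150 probes, carrying 116 gene names, among 28845 gene probes on each of 5 two-colour mouse oligonucleotide arrays. The probes were those whose gene name starts with Kcn, Scn and a number, Cacn, Hcn and a number, or Clcn. They comprised 82 potassium channel probes (68 names), 36 calcium channel probes (24 names), 14 sodium channel probes (11 names), 11 chloride channel probes (9 names) and 7 probes of the Hcn pacemaker cation channels. Of these names, 93 had 1 probe and 23 had several.

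The arrays compared total RNA of 4 populations isolated from mouse embryoid bodies, the cell aggregates in which embryonic stem cells differentiate, by a marker of their lineage stage. Day 0 gave undifferentiated stem cells positive for Rex1. Day 4.5 gave early mesoderm positive for Bra and cardiac mesoderm positive for Flk1. Day 7.5 gave cardiac progenitors positive for Nkx2.5. The 5 arrays paired Bra with Rex1, Flk1 with Rex1, Nkx2.5 with Rex1, Nkx2.5 with Bra and Nkx2.5 with Flk1. The population named first carried Cy5 and the second Cy3. Each pair was hybridised once and the dyes were not exchanged, so there are no replicates to test a difference against, and dye cannot be told apart from population on an array. Rex1 cells were in Cy3 on all 3 of their arrays and Nkx2.5 cells in Cy5 on all 3 of theirs. The labels do not say from which cell line the embryoid bodies came or whether cells were pooled from several preparations.

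Ion channels set the electrical behaviour of heart muscle. Sodium channels carry the fast upstroke of the action potential, L-type calcium channels its plateau and the trigger for contraction, and several potassium channels repolarise the cell and hold its resting potential. Hcn channels and T-type calcium channels contribute to pacemaking, which is prominent in the early heart. Clcn proteins are chloride channels of the cell surface or chloride/proton exchangers of endosomes and lysosomes.

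No ion channel probe was called changed both with ratios centred over the whole array and with ratios centred within each of its printed blocks. A probe was called when 2 readings both reached 2-fold (1 on the log2 scale) in the same direction: the direct array, and the route through another population. The brighter population also had to exceed percentile 95 of 96 negative control spots on at least 0.5 of its arrays. By that rule 8 ion channel probes were higher in Nkx2.5 than in Rex1 cells, 2 in Bra than in Rex1 cells and 2 in Flk1 than in Rex1 cells. None was lower in any comparison, and none was called in either direction between Nkx2.5 and Bra, Nkx2.5 and Flk1, or Flk1 and Bra. The share of all 28845 probes called higher was 2.74% in Nkx2.5 over Rex1, against 8 of 150 ion channel probes. It was 1.27% in Bra over Rex1, 0.749% in Flk1 over Rex1, 0.319% in Nkx2.5 over Bra, 0.34% in Nkx2.5 over Flk1 and 0.0173% in Flk1 over Bra. The shares of all probes called lower, in the same order, were 0.742%, 0.253%, 0.291%, 0.0728%, 0.101% and 0.00347%.

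All 8 channel probes called in any comparison lay in 5 neighbouring blocks of the array. Each array is printed as 48 blocks in 12 rows and 4 columns. The 4 blocks of row 11 and the first block of row 12 held 14 ion channel probes, of which 8 were called higher in Nkx2.5 over Rex1. The other 43 blocks held 136 ion channel probes, of which 0 were called in any comparison. The same 5 blocks held 623 of the 791 probes of any gene called higher in Nkx2.5 over Rex1, or 20.9% of their 2983 probes, against 0.65% of the 25862 probes elsewhere. They also held 329 of the 366 probes called higher in Bra over Rex1 (0.143% elsewhere) and 174 of the 216 called higher in Flk1 over Rex1 (0.162% elsewhere). In Nkx2.5 over Bra they held only 12 of 92, and in Nkx2.5 over Flk1 16 of 98. The 5 blocks were singled out after the calls were seen.

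The ratios of all probes were shifted in these blocks, not only those of the called ones. In the 5 blocks the median log2 ratio over all probes was 0.44 in Nkx2.5 over Rex1, 0.52 in Bra over Rex1 and 0.62 in Flk1 over Rex1. In the 43 other blocks it was -0.02, -0.03 and -0.02. The arrays without Rex1 were shifted the same way by less, with medians of 0.19 in Nkx2.5 over Bra and 0.29 in Nkx2.5 over Flk1 in the 5 blocks, against -0.01 and -0.02 elsewhere. The scanner's background value in the Cy3 channel of the Nkx2.5 over Rex1 array had a median of 9665 in the 5 blocks and 8130.5 elsewhere, while the Cy5 background was 3687 and 3584.5. Without Rex1, the Cy3 background was 7989.5 and 6669.5 on the Nkx2.5 over Bra array and 7369.5 and 6011 on the Nkx2.5 over Flk1 array. Columns 2, 3 and 4 of block row 12, outside the 5 blocks, had Cy3 backgrounds of 10046, 9845 and 9751 on the Nkx2.5 over Rex1 array. There 1.52%, 1.66% and 1.34% of all probes were called higher, and the median log2 ratios were 0.14, 0.19 and 0.19. Rex1 signal was above the negative control limit on every array for 53.3% of the probes in the 5 blocks, against 76.5% elsewhere. When loess, the intensity-dependent centring of the ratios, was run within each block instead of over the whole array, none of the 8 probes was called. That fit left 221 probes of any gene (0.766%) higher in Nkx2.5 over Rex1, 43 (0.149%) in Bra over Rex1 and 54 (0.187%) in Flk1 over Rex1, against 0 ion channel probes each. It called 0.319% of all probes higher in Nkx2.5 over Bra, 0.295% in Nkx2.5 over Flk1 and 0.0243% in Flk1 over Bra. The shares called lower were 0.565%, 0.267% and 0.284% against Rex1 for Nkx2.5, Bra and Flk1. They were 0.0832%, 0.104% and 0.00347% in Nkx2.5 over Bra, Nkx2.5 over Flk1 and Flk1 over Bra, with 0 ion channel probes among them.

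**Figure D1:**
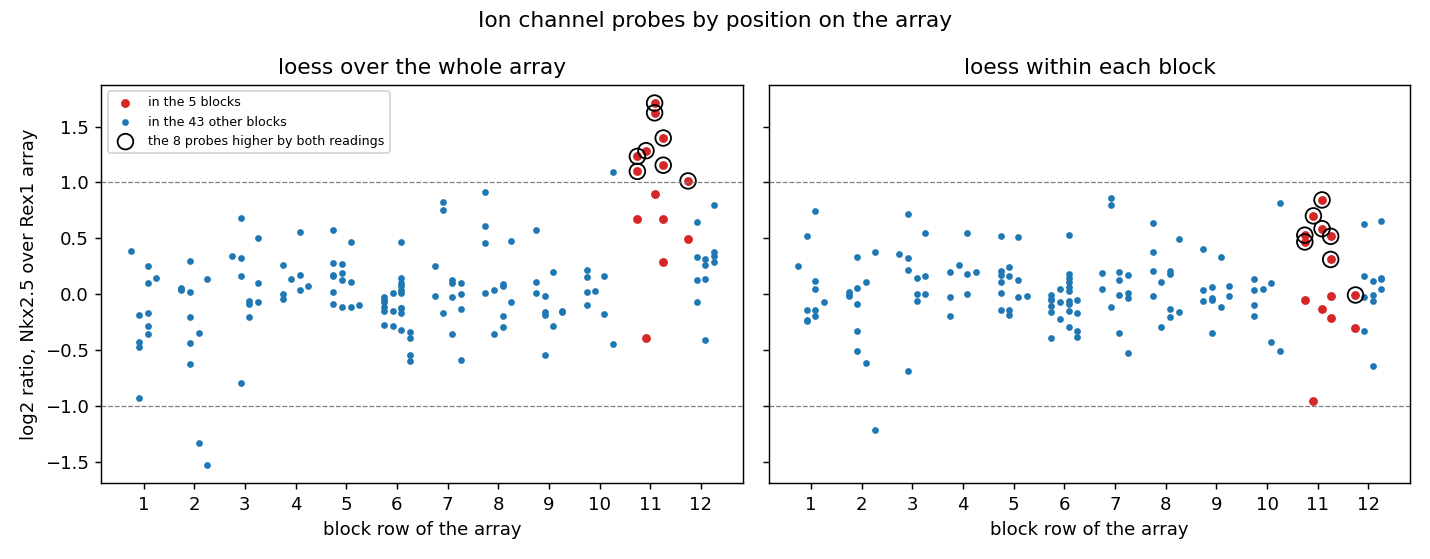
Log2 ratio of the 150 ion channel probes on the Nkx2.5 over Rex1 array, by block row, after loess over the whole array (left) and within each block (right). Red points lie in the 5 blocks, blue points in the 43 others, and circles mark the 8 probes called higher by both readings. On the left the circled probes stand at 1.01 to 1.71 and all lie in rows 11 and 12; on the right they lie between -0.01 and 0.84.

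Most ion channel probes gave signal above the negative controls. In all 10 channels of the 5 arrays 112 of 150 probes (74.7%) exceeded the limit, against 73.1% of all probes. By population, 144 ion channel probes were above it on every array of Nkx2.5, 140 on every array of Flk1, 139 on every array of Bra and 112 on every array of Rex1. The shares of all probes were 90.4%, 88.8%, 88.2% and 74.1%. Of the ion channel probes, 19 were above the limit on no Rex1 array, 3 on no Bra array, 4 on no Flk1 array and 0 on no Nkx2.5 array. The shares of all probes, in that order, were 12.6%, 5.87%, 5.09% and 3.34%. Of the 19, 7 lay in the 5 blocks. Of all probes, 29.0% in the 5 blocks and 10.8% elsewhere were above the limit on no Rex1 array. Above the limit in all 10 channels were 59 of 82 potassium, 29 of 36 calcium, 10 of 14 sodium, 11 of 11 chloride and 3 of 7 pacemaker probes. The median ion channel probe stood at 3.93, 3.14 and 3.65 times the limit in Nkx2.5 cells and 3.24 and 2.86 times in Flk1 cells. It stood at 2.88 and 2.70 times in Bra cells and 1.70, 2.11 and 1.90 times in Rex1 cells. A typical probe thus has a higher multiple of the limit outside Rex1 cells.

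Signal above the limit was also common for genes best known from sensory cells. Of 188 probes for odorant, vomeronasal and taste receptors 59.6% were also above it in all 10 channels. Levels of different probes are not compared here, since a probe's brightness also depends on its sequence.

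The ion channel probes as a group sat at the centre of the arrays. Their median log2 ratio was -0.01 in Bra over Rex1, 0.04 in Flk1 over Rex1, 0.04 in Nkx2.5 over Rex1, -0.05 in Nkx2.5 over Bra and -0.05 in Nkx2.5 over Flk1. The medians over all probes lay between 0.00 and 0.01. Both readings were under 0.5 in size for 70.0% of ion channel probes in Nkx2.5 over Rex1, against 67.0% of all probes. The error of a single array, from how well ratios added up around the triangles of populations, was 0.264 for ion channel probes and 0.244 for all probes (SD on the log2 scale).

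**Figure D2:**
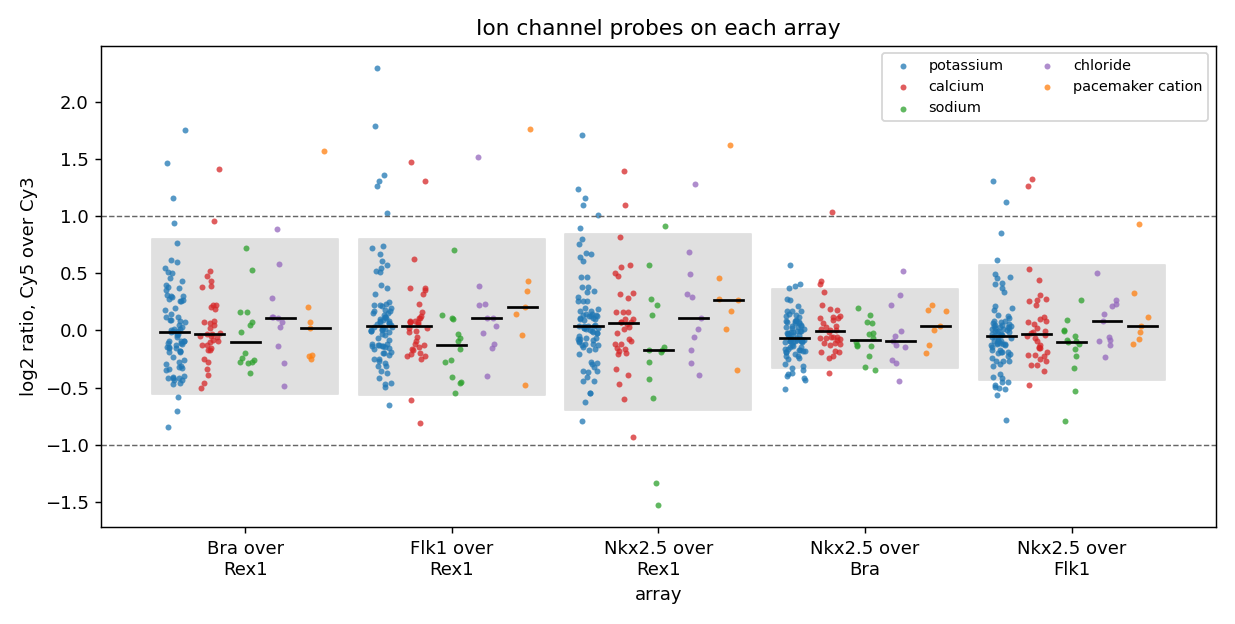
Log2 ratio, Cy5 over Cy3, of each ion channel probe on each array, coloured by class, with black bars at the class medians. Grey bands span percentiles 5 to 95 of all 28845 probes and dashed lines mark 2-fold. The class medians lie between -0.17 and 0.27, and the points above 2-fold against Rex1 are few.

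Of the 8 called probes, 6 are described here. Among potassium channels they were Kcnn1, a small-conductance calcium-activated channel, Kcns2, a silent subunit that modifies Kv2 channels, Kcnj5, a subunit of the acetylcholine-activated inward rectifier of the atrium, and Kcna4, a Kv1 channel of transient outward current. The calcium channel genes were Cacna1e, which encodes the R-type pore, and Cacng8, an auxiliary gamma subunit that acts on brain glutamate receptors.

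Kcnn1 had the highest direct ratio of the 8 in Nkx2.5 over Rex1. Its net signal was 3.96, 2.80 and 3.34 times the negative control limit in Nkx2.5 cells, 2.64 and 1.40 times in Flk1 cells, 2.67 and 2.29 times in Bra cells, and 0.547, 0.534 and 0.762 times in Rex1 cells. Its signal in every Nkx2.5, Flk1 and Bra channel was thus above that in every Rex1 channel. So was that of the median ion channel probe, at 2.70 to 3.93 times against 1.70 to 2.11 times. The log2 ratio of Kcnn1 was 1.71 on the Nkx2.5 over Rex1 array and 2.37 by the routes through Bra and Flk1, and 1.75 and 1.63 in Bra over Rex1. Rex1 was below the limit on all 3 arrays, so bounds were set for Kcnn1 on values normalised over the whole array. These were at least 2.08-fold higher in Nkx2.5 and at least 1.97-fold higher in Bra than in Rex1 cells. On the log2 scale they were 1.06 and 0.98. They do not allow for the shift of all ratios in its block, so they are not firm minimums. With loess within blocks the direct ratios of Kcnn1 were 0.84 in Nkx2.5 over Rex1 and 0.66 in Bra over Rex1. Both lay below the bounds, and the call ended.

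Kcnj5 read 1.15 directly and 1.63 by the indirect routes in Nkx2.5 over Rex1, with Rex1 above the limit on 2 of 3 arrays. Its direct ratio was 0.31 with loess within blocks. Kcna4 stood just inside the threshold at 1.01 and 1.10, with Rex1 below the limit throughout. On values normalised over the whole array its bound was at least 1.21-fold higher in Nkx2.5, which does not allow for the block shift. Centred within its block, Kcna4 read -0.01 directly and -0.46 by the indirect routes. The other 3 of the 6 probes ranged on the direct array from 1.10 for Cacng8 and 1.23 for Kcns2 to 1.40 for Cacna1e. Their direct ratios with loess within blocks were 0.47, 0.53 and 0.52. Cacna1e was also called in Flk1 over Rex1, at 1.31 on the direct array and 1.13 by the second reading (0.21 directly with loess within blocks). On values normalised over the whole array its bounds were at least 1.19-fold higher in Nkx2.5 and at least 1.23-fold higher in Flk1. These bounds do not allow for the block shift either.

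**Figure D3:**
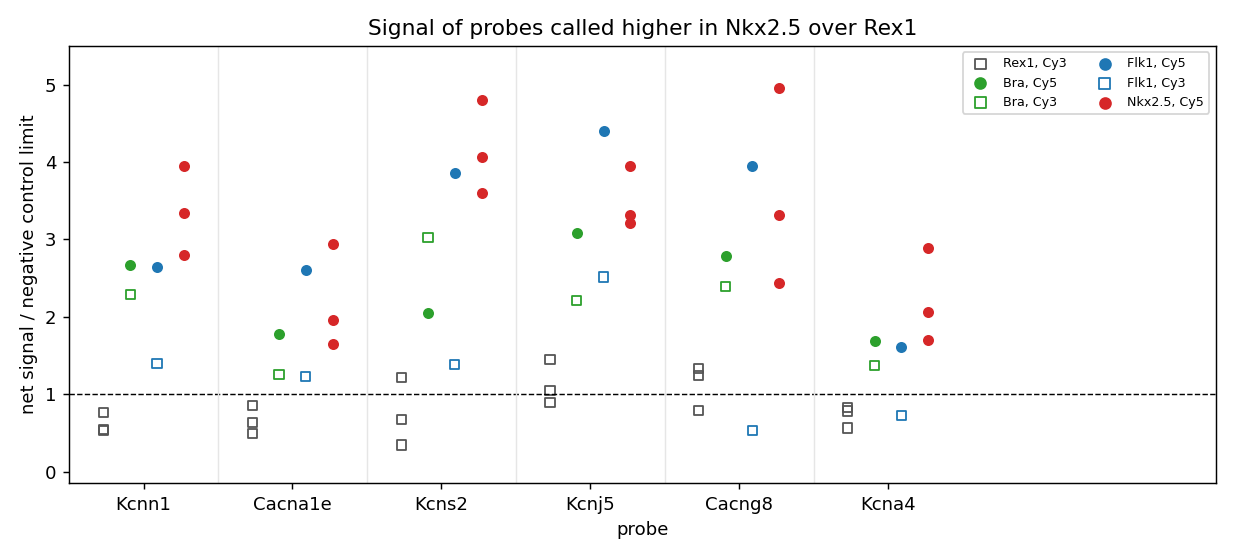
Net signal of 6 of the 8 called probes, as a multiple of the negative control limit of the same channel, in each array channel. Filled circles are Cy5 channels, open squares Cy3 channels, and the dashed line marks the limit. The Rex1 points, all Cy3, lie lowest for most probes, and the Flk1 Cy3 point lies below the Flk1 Cy5 point for each of the 6. The median ion channel probe was also lowest in Rex1 channels.

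**Figure D4:**
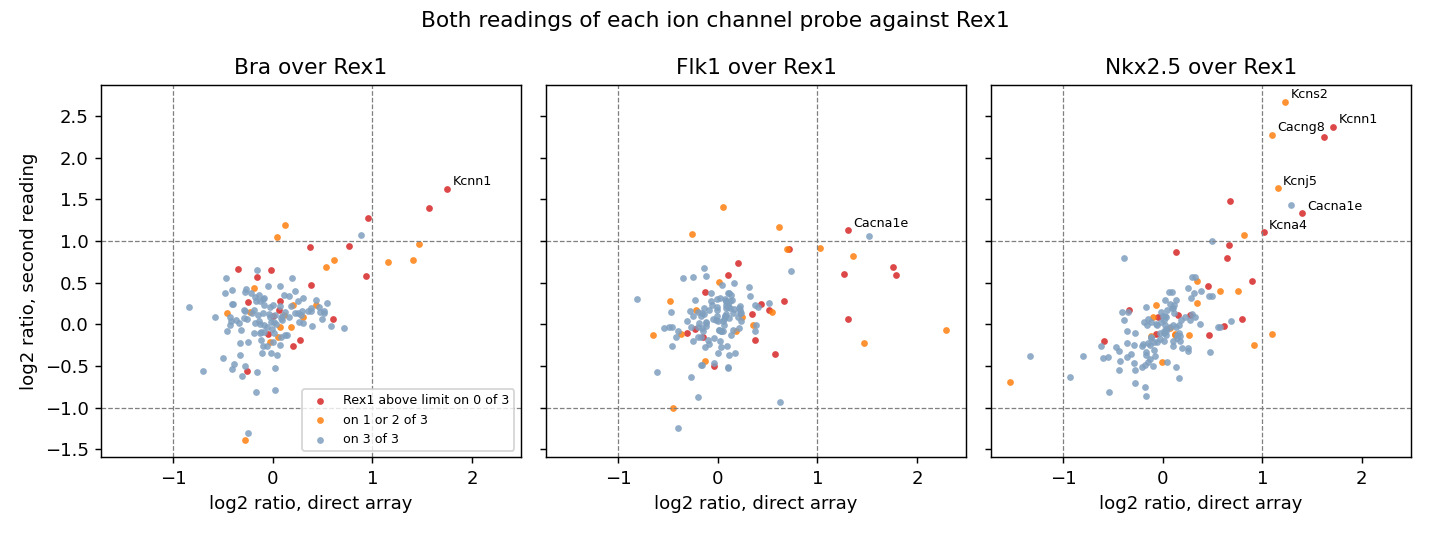
Direct log2 ratio (horizontal axis) against the second reading (vertical axis) of each ion channel probe in Bra, Flk1 and Nkx2.5 over Rex1. Colour gives the number of Rex1 arrays on which the probe exceeded the negative control limit, and dashed lines mark 2-fold. In Nkx2.5 over Rex1 the probes in the upper right corner are the 8 called, 4 of them dim in Rex1 on all 3 arrays; 6 are named.

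Rex1 signal is the denominator of these ratios, so a split by Rex1 signal is not independent of the call and is given as a description. Of probes dim on every Rex1 array, 4 of 19 ion channel probes and 11.1% of all 3647 were called higher in Nkx2.5 over Rex1. Where Rex1 was above the limit on every array, 1 of 112 ion channel probes and 0.716% of all 21366 were called. The part of the block and of dim Rex1 signal in these calls was not separated further.

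Kcnj5 and Kcna4, both called potassium channels, are shown with their promoters, 300 bases from 250 before to 50 after the start of the gene (RefSeq, GRCm38.p6). Capitals mark AAGTG, the core of the site that Nkx2.5 binds, and GGGCGG, the Sp1 core, searched on both strands.
Kcnj5, chr9:32344295-32344594, minus strand: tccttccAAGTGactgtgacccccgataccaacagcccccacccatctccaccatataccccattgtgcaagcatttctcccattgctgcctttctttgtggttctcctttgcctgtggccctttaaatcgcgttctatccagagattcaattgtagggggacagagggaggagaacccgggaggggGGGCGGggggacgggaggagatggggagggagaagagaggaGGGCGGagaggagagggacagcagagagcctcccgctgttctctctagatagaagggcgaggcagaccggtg
Kcna4, chr2:107290339-107290638, plus strand: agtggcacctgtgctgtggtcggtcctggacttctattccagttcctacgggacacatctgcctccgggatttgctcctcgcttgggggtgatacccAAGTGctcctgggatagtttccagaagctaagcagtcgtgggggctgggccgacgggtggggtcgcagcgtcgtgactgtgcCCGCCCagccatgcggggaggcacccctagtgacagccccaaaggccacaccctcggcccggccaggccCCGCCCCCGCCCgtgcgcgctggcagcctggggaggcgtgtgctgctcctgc
The promoter of Kcnj5 holds AAGTG 1 time and GGGCGG 2 times, and that of Kcna4 holds them 1 and 3 times. The promoters of Kcnn1, Cacna1e and Cacng8, which were also called, hold each of them 0 times and are not shown. AAGTG occurs in 35.6% of the 87 ion channel promoters matched and in 46.5% of all 27025 promoters. GGGCGG occurs in 52.9% and 35.9%, and TATAAA in 4.60% and 14.2%. These matches describe the windows and were not related to the ratios.

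Outside the 5 blocks, a probe for Cacnb4, an auxiliary beta subunit of high-voltage calcium channels, came nearest to a change in cardiac progenitors. It read 0.82 in Nkx2.5 over Rex1, 1.03 in Nkx2.5 over Bra and 1.26 in Nkx2.5 over Flk1 on the direct arrays. The second readings were 1.07, 0.85 and 0.95, so it missed the threshold in each comparison by 1 reading. Its signal was 4.90, 3.32 and 4.13 times the limit in Nkx2.5 cells, against 1.87 and 1.68 times in Flk1 cells, 1.60 and 1.51 times in Bra cells, and 0.983, 1.38 and 1.51 times in Rex1 cells. The 3 Nkx2.5 values lay above all others. The median ion channel probe stood at 3.14 to 3.93 times in Nkx2.5 cells and 1.70 to 3.24 times in the others. With loess within blocks this Cacnb4 probe was called in Nkx2.5 over Bra (1.11 and 1.05), the only ion channel call under that fit, where 0.319% of all probes were called. The other Cacnb4 probe read 0.10, -0.13 and -0.21 on the 3 Nkx2.5 arrays.

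Outside the 5 blocks no other calcium channel probe was called with either loess. Among L-type pores, the 4 probes of Cacna1c, the main L-type channel of heart muscle, ranged from -0.15 to 0.07 in Nkx2.5 over Rex1 and from -0.22 to 0.08 in Nkx2.5 over Flk1. The pair of probes for Cacna1d, an L-type pore of the sinoatrial node, read 0.06 and -0.60 in Nkx2.5 over Rex1. Cacna1s, the skeletal muscle pore, read -0.20. Among T-type pores, Cacna1g read 0.01 and the 3 probes of Cacna1h read 0.50, -0.12 and -0.16 in Nkx2.5 over Rex1. The lowest pore in Nkx2.5 over Rex1 was Cacna1a, of neuronal P/Q-type channels, at -0.93 directly and -0.63 by the indirect routes. Centred within blocks, Cacna1a read -0.23 directly, and the lower Cacna1d probe, at -0.38, was below it.

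Of the auxiliary calcium channel subunits, Cacnb2, the main beta subunit of the heart, read -0.02 and 0.16 with its pair of probes in Nkx2.5 over Rex1. Cacnb3 read 0.56. The 3 probes of Cacnb1 read -0.47, 0.57 and -0.34, so probes of this name differed by 1.04. Cacna2d1, an alpha2delta subunit, lay in the 5 blocks and read -0.39 against Rex1, or -0.96 with loess within blocks.

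Sodium channels gave no call. The beta subunit Scn3b read -0.43 in Nkx2.5 over Rex1 and -0.80 in Nkx2.5 over Flk1. Scn4a, the skeletal muscle channel, read 0.57 in Nkx2.5 over Rex1, 0.70 in Flk1 over Rex1 and 0.53 in Bra over Rex1, and 0.40, 0.39 and 0.20 with loess within blocks.

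The lowest sodium channel readings were those of Scn8a, a neuronal sodium channel that heart muscle also expresses. Of its 4 probes, 2 read -1.34 and -1.53 on the Nkx2.5 over Rex1 array, but -0.38 and -0.69 by the indirect routes. The other 2 read 0.22 and 0.14 on that array. The low pair of Scn8a probes lay in neighbouring blocks of block row 2, and with loess within blocks they read -0.62 and -1.22. Scn11a and Scn10a, channels of pain-sensing neurons, each stood out on 1 array, at 0.92 in Nkx2.5 over Rex1 and 0.72 in Bra over Rex1.

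Among the delayed rectifiers that repolarise heart muscle, no probe was called. Kcnq1, the pore of the slow delayed rectifier, read -0.02 in Nkx2.5 over Rex1, -0.01 in Flk1 over Rex1 and 0.50 in Bra over Rex1. Its partner Kcne1 read 0.05, 0.23 and 0.26 on the same arrays. The pair of probes for Kcnh2, the rapid delayed rectifier, read 0.26 and -0.12 in Nkx2.5 over Rex1 and 0.40 and -0.58 in Bra over Rex1, opposite in sign.

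Apart from Kcna4, described above, no probe for the transient outward current was called. Kcnd2 and Kcnd3 encode its pores and Kcnip2 its accessory subunit. In Nkx2.5 over Rex1 the Kcnd2 probes read 0.29 and 0.34 and the Kcnip2 probes 0.02 and -0.44. A Kcnd2 probe lay in the 5 blocks, where the median over all probes was 0.44 on that array. The other Kcnd2 probe lay in block row 12. The Kcnd3 probes read -0.29 and 0.67 in Nkx2.5 over Rex1. The higher Kcnd3 probe, in the 5 blocks and dim on all Rex1 arrays, read 1.26 in Flk1 over Rex1, against 0.08 for the other Kcnd3 probe. Kcna5, the ultrarapid delayed rectifier of the atrium, read 0.25, or 0.74 with loess within blocks.

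Inward rectifiers hold the resting potential or respond to receptors and ATP. Kcnj2, the main inward rectifier of the ventricle, read 0.00 in Nkx2.5 over Rex1, and Kcnj12, Kcnj4 and Kcnj11 read 0.04, 0.02 and 0.14. Kcnj8, the pore of a vascular ATP-sensitive channel, was the highest inward rectifier outside the 5 blocks. It read 0.76 in Nkx2.5 over Rex1, 0.61 in Flk1 over Rex1 and 0.62 in Bra over Rex1, and 0.80, 0.76 and 0.47 with loess within blocks. Kcnj3, the partner of Kcnj5 in the atrial channel, read -0.08 in Nkx2.5 over Rex1, -0.40 in Nkx2.5 over Bra and -0.45 in Nkx2.5 over Flk1.

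Kcne3, an accessory subunit of Kcnq and other Kv channels, read highest in Flk1 cells, though no comparison passed the rule. It read 1.03 directly and 0.91 by the second reading in Flk1 over Rex1, just outside the threshold, and -0.79 and -0.90 in Nkx2.5 over Flk1. In Flk1 over Bra the readings of Kcne3 were 1.21 and 0.48. Its signal was 2.63 and 2.87 times the limit in Flk1 cells, against 0.935 and 2.26 times in Bra cells and 0.66, 1.04 and 0.676 times in Rex1 cells. Signal in Bra cells thus differed between its 2 arrays by more than the Flk1 values did. With loess within blocks Kcne3 read 0.99 directly in Flk1 over Rex1, so its position on the array moved it little in that comparison. Kcne2, in the 5 blocks, read 1.31 in Flk1 over Rex1, or 0.20 with loess within blocks.

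Among the calcium-activated channels and the two-pore channels of background conductance, readings outside the 5 blocks also stayed under the threshold. The 4 probes of Kcnma1, the large-conductance channel, ranged from -0.55 to 0.38 in Nkx2.5 over Rex1. Kcnn2, Kcnn3 and Kcnn4 read 0.14, 0.10 and 0.80, with Kcnn4 dim on every Rex1 array. Kcnn4 lay in block row 12, where the medians over all probes in columns 2, 3 and 4 were 0.14, 0.19 and 0.19 on that array. Kcnk2, a mechanosensitive channel, had the lowest pair of readings in Bra over Rex1, at -0.70 directly and -0.57 by the second reading. Kcnk3, Kcnk1 and Kcnk5 read -0.05, 0.38 and 0.19 in Nkx2.5 over Rex1.

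Hcn4, the main pacemaker channel of the sinoatrial node and the early heart tube, had 1 probe. Its signal was 1.21, 1.06 and 0.942 times the limit in Nkx2.5 cells, 1.07 and 0.332 times in Flk1 cells, 0.847 and 0.669 times in Bra cells, and 0.424, 0.493 and 0.338 times in Rex1 cells. It thus passed the limit on 2 of 3 Nkx2.5 arrays and on no Rex1 array. The median ion channel probe also stood higher in Nkx2.5 cells, at 3.14 to 3.93 times, than in Rex1 cells, at 1.70 to 2.11 times. The Hcn4 ratio was 0.46 in Nkx2.5 over Rex1, 0.18 in Nkx2.5 over Bra and 0.33 in Nkx2.5 over Flk1, or 0.21, 0.16 and 0.19 with loess within blocks. The Hcn2 probes read -0.35 and 0.27 and the Hcn3 probes 0.28 and 0.01 in Nkx2.5 over Rex1.

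No chloride channel or exchanger probe outside the 5 blocks was called with either loess. In Nkx2.5 over Rex1, Clcn3, Clcn5, Clcn6 and Clcn7, of endosomes and lysosomes, read 0.29, 0.01, -0.17 and -0.05. The pair of probes for Clcn4-2 (now Clcn4) read 0.69 and -0.39, and the pair for Clcn1, the skeletal muscle channel, 0.32 and 0.11. Clcn2, in the 5 blocks, read 0.49, or -0.30 with loess within blocks.

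**Figure D5:**
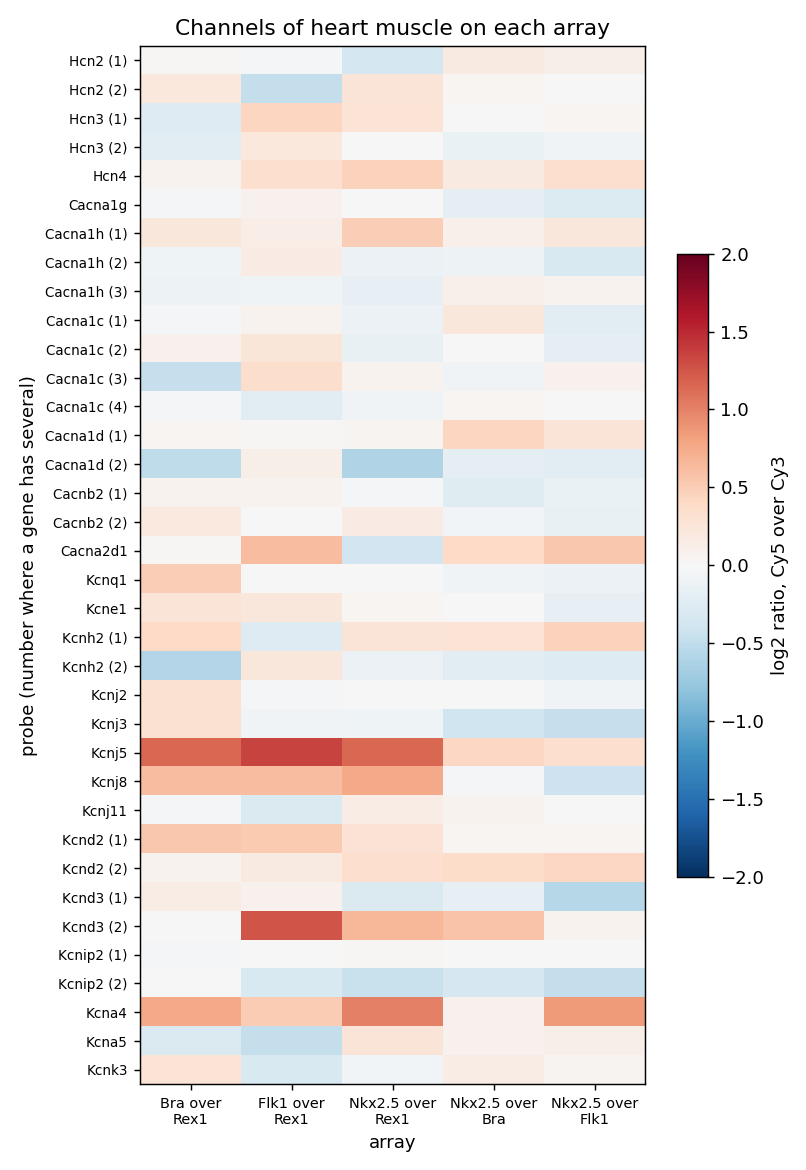
Log2 ratio, Cy5 over Cy3, of 36 probes for 23 channel genes of heart muscle on the 5 arrays, as colour from blue (-2) to red (2). Most cells are pale. The rows with strong red, Kcnj5, Kcna4 and the second Kcnd3 probe, are probes of the 5 blocks.

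Probes of the same gene often disagreed by as much as the readings above. In 8 of the 23 names with several probes, the highest and lowest probe differed by more than 1 on at least 1 array. The gap was 1.75 for Scn8a in Nkx2.5 over Rex1 and 1.48 for Cacnb4 in Nkx2.5 over Flk1. It was 1.30 for Kcnip1, 1.22 for Kcnj6, 1.18 for Kcnd3 and 1.07 for Clcn4-2. The median over the 23 names of the widest gap was 0.66.

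Genes other than channels did pass the rule with either loess. Of 10 heart muscle genes, 6 were higher in Nkx2.5 than in Rex1 cells with each loess, among them the myosin light chain Myl7 (2.67 and 2.39) and the troponin Tnnt2 (2.46 and 2.51). In Nkx2.5 over Flk1 7 of the 10 were higher with each loess. In Nkx2.5 over Bra 4 of the 10 were higher, and 7 with loess within blocks. Of 7 blood genes 5 and of 7 stem cell genes 0 were higher in Nkx2.5 over Rex1, while 5 of the stem cell genes were lower. Of 9 endoderm genes 3, of 4 smooth muscle genes 1, of 16 neural genes 1 and of 8 endothelium genes 0 were higher in Nkx2.5 over Rex1, and 2 neural genes were lower. Of the 4 genes of the sort markers, only Zfp42, the gene of Rex1, was called, lower in all 3 populations than in Rex1 cells. The other 3 missed the threshold in the population sorted for them. T, the gene of Bra, read 1.07 and 0.73 in Bra over Rex1. Kdr, the gene of Flk1, read 0.68 and 0.64 in Flk1 over Rex1. Nkx2-5 read 0.53 and 0.91 in Nkx2.5 over Rex1. The part of other cell types in the channel readings was not tested.

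Of 60 other ion transport genes listed (pumps, exchangers, calcium release channels and connexins), 52 were on the arrays. Only Atp1b1, a subunit of the sodium pump, was called: it read -1.48 and -1.45 in Bra over Rex1 and 1.54 and 1.57 in Nkx2.5 over Bra, and it was called in the same directions with loess within blocks.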

How the data were processed

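The deposited scanner files, 1 per array, give each spot's median net signal as an intensity with a block's background subtracted, per the file headers. The authors' deposited series table holds log2 ratios of Cy5 over Cy3, equal to the log2 of the deposited scanner ratio minus 1 constant per array. The scanner software and a genome build are not stated (not given in the sources used here). Foreground was rebuilt as net signal plus background, corrected with limma 3.58.1 (R 4.3.3; normexp, offset 50) and centred by loess over the array, with control spots at weight 0. The 307 spots marked as quality checks were left out. Both readings had to reach 1 on the log2 scale. For Flk1 over Bra the readings were the routes through Rex1 and Nkx2.5. A bound ("at least") sets the brighter population's mean against the dimmest signal above the limit, after Aquantile scaling. Such a bound is open to dye bias and to the block shift. Loess within blocks was added after the calls were seen. Named are called probes, extremes, channels of heart muscle, names whose probes differ by over 1, and probes near the threshold. Members and lists (heart muscle, blood, endoderm, endothelium, smooth muscle, neural, stem cell, sort markers, other ion transport) were chosen with earlier results of these data known. RefSeq matched 85 probes by accession, 64 by symbol and 1 by synonym. Arrays carry no read depth, and 1 array per pair limits the precision. Some ion channel genes are counted among the members but not reported here.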

Additional observations from a re-analysis of the deposited data

How the results depend on the processing

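No paired analysis was possible because each pair of populations was hybridised once. Counts below are ion channel probes called higher against 8 in Nkx2.5 over Rex1, 2 in Flk1 over Rex1 and 2 in Bra over Rex1. With loess within blocks, without the 5 blocks and without background subtraction all 3 counts were 0. Without background subtraction 2 of all 28845 probes were called higher in Nkx2.5 over Rex1, and the direct ratio of Tnnt2 was 0.90. Percentages in brackets below are the shares of all probes called under the same setting. With the net signal and offset, and with the series table, the count in Nkx2.5 over Rex1 was 3 (2.19% and 1.32%). In Flk1 over Rex1 it was 0 with each (0.846% and 0.293%). In Bra over Rex1 leaving out spots marked bad gave 1 (0.742%) and 1 probe a gene gave 1 (1.16%). There the direct array alone gave 5 (3.16%) and a 1.5-fold threshold 9 (3.59%). In Flk1 over Rex1 the direct array alone gave 10 (3.43%) and a 1.5-fold threshold 11 (2.78%). Comparisons with 0 calls gave 1 in Nkx2.5 over Bra with loess within blocks (0.319%), the 1.5-fold threshold (0.842%) and the direct array alone (0.454%). In Nkx2.5 over Flk1 median centring gave 1 (0.354%), the 1.5-fold threshold 1 higher (1.19%) and 1 lower (0.621%), and the direct array alone 4 (1.32%). In Flk1 over Bra a single route gave 2 higher (0.811%). In Nkx2.5 over Rex1 the 1.5-fold threshold and the direct array alone each gave 2 lower (3.16% and 1.53%). The smaller reading in Nkx2.5 over Rex1 reversed to -0.0331 for Cacna1e and -0.181 for Kcna4 without background subtraction, and to -0.0071 for Kcna4 with loess within blocks. The direct ratio of Kcnj5 was also negative without background subtraction, at -0.0527. Of the other counts, 17 above 0 stayed within 1.5 times the reported one, and 89 were 0 under both, which says nothing about stability. In the 5 blocks' calls against Rex1, population and dye cannot be told apart, since Rex1 was always in Cy3. Block row 12 outside the 5 blocks had as high a Cy3 background on the Nkx2.5 over Rex1 array but few calls. The part of that background in the calls was not tested.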

Other observations

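Flk1 and Bra cells were measured in both dyes, which gives a second reading of each called probe in the same population. The signal, as a multiple of the channel's negative control limit, was lower in Cy3 than in Cy5 for 8 of the 8 called probes in Flk1 cells and for 7 of 8 in Bra cells. Over all 150 ion channel probes it was lower in Cy3 for 72.7% in Flk1 cells and 62.7% in Bra cells, and over all 2983 probes of the 5 blocks for 85.2% and 78.7%. Over all 28845 probes the shares were 64.1% and 66.2%. The part of the dye in the ratios against Rex1 was not tested.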
